A study of Mus musculus with 18 samples.

Results

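The sodium pump (Na,K-ATPase) and its FXYD regulators were followed through 18 RNA-seq libraries of mouse uterus. The genes described are 8 of the 25791 in the deposited table, matched by symbol: the regulators Fxyd1, Fxyd2, Fxyd3, Fxyd4, Fxyd5 and Fxyd6 and the pump's beta subunits Atp1b1 and Atp1b3. They were picked by name with earlier results of these same libraries known, so their levels and differences are described and not tested, and all 8 passed the filter that asked for at least 1 FPKM in at least 3 libraries. Uterine-specific Tsc2-null mice (KO) were compared with wild-type mice (WT), and both genotypes were on a mixed 129Sv and C57BL/6 background and 12 weeks old at collection. TSC2 restrains the growth kinase complex mTORC1, and the sources used here do not name the promoter that removes Tsc2 from the uterus. Each genotype had an intact state with ovaries, an ovx state in which mice were oophorectomized at 4 weeks of age, and an E2 state in which such mice then carried a pellet with 0.5 mg of 17β-estradiol, of a 90-day release type, for 8 weeks. Every group held 3 libraries, and values of a group are printed below by rising replicate number: KO intact 1, 3 and 4, WT intact 1, 2 and 4, KO ovx 1, 2 and 4, WT ovx 1, 2 and 3, KO E2 1, 2 and 3, and WT E2 1, 2 and 5. The tissue was a cross section of whole uterus, and the labels do not tie libraries to separate animals, so the p-values given for other genes measure only the spread between these samples.

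The pump exchanges sodium inside the cell for potassium outside it at the cost of ATP. Its alpha subunit does the transport, its beta subunit is a glycoprotein needed to fold the alpha subunit and bring it to the surface, and a small single-pass FXYD protein can sit beside them and tune the pump's affinity for ions. In epithelia such as the uterine lining the pump lies in the basolateral membrane, where the sodium gradient it makes drives the movement of salt and fluid, and estrogen is known to change the fluid of the uterine lumen.

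Which FXYD message led differed with genotype and hormone. Fxyd2, the gamma subunit best known from kidney, led in the 3 KO ovx libraries, where its mean FPKM was 133 times that of WT ovx. Fxyd4, a regulator of kidney collecting duct and distal colon, led in the 3 WT intact libraries, and its mean in KO intact was lower by a factor of 115. Fxyd5, also called dysadherin, led in 2 of the 3 KO E2 libraries, and Fxyd3, found in many epithelia, led in all 3 WT E2 libraries. FPKM are fragments scaled to transcript length and to the mapped total of the library, so they can be set side by side between genes, but in whole tissue fewer cells of a type and less RNA per cell cannot be told apart.

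**Figure D1:**
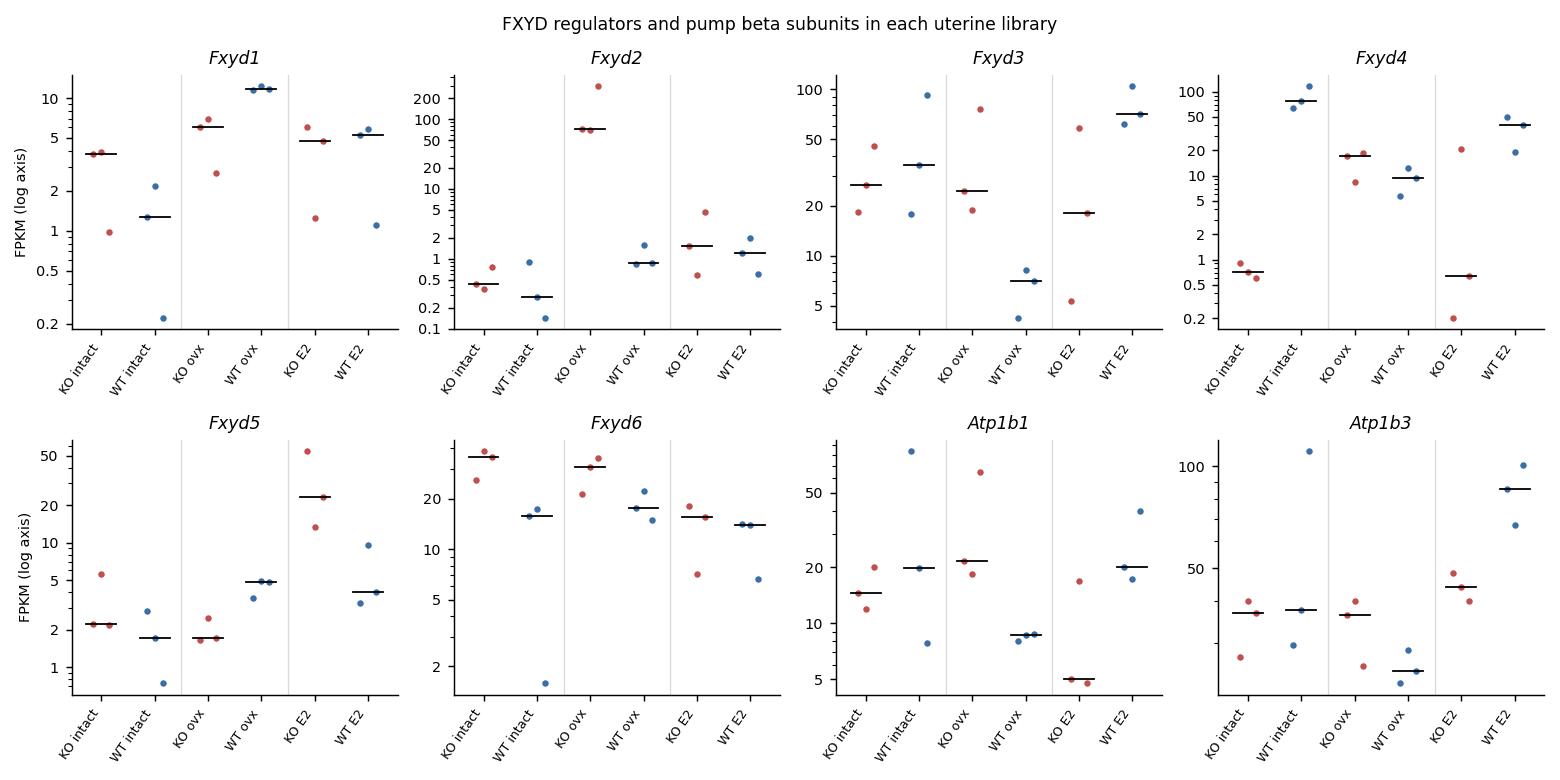
FPKM (log axis) of the 8 genes in each library, by group, with KO left of WT within each hormone state; points are libraries and lines are group medians of 3. Fxyd2 stands high only in KO ovx, Fxyd4 is low in KO intact and high in WT intact, and KO E2 holds 1 library with high Fxyd4.

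Stretches of genome upstream of these genes are shown because the genes beside them differed between groups in distinct ways: Fxyd4, low in KO intact, and the neighbours Fxyd3 and Fxyd1, of which Fxyd3 was low and Fxyd1 high in WT ovx. That of Atp1b3, high in WT E2, is shown because it holds the core motif of the estrogen response element. RefSeq gave promoters for 7 of the 8 genes, and each window is the 250 bases before the annotated start on GRCm38.p6, written 5′ to 3′ on the strand of the gene, which is the minus strand for these 4 genes, with searched motifs in capitals. The region of Fxyd4 is chr6:117937336-117937585, that of Fxyd3 chr7:31076698-31076947, that of Fxyd1 chr7:31054854-31055103 and that of Atp1b3 chr9:96364432-96364681.
Fxyd4: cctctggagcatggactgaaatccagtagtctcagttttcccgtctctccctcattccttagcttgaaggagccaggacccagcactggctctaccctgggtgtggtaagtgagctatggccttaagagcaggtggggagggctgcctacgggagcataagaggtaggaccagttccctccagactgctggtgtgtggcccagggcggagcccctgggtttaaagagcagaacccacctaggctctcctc
Fxyd3: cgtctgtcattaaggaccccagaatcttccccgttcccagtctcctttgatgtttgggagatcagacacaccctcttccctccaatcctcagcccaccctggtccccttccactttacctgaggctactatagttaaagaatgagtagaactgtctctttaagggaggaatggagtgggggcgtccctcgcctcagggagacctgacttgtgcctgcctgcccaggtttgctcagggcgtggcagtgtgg
Fxyd1: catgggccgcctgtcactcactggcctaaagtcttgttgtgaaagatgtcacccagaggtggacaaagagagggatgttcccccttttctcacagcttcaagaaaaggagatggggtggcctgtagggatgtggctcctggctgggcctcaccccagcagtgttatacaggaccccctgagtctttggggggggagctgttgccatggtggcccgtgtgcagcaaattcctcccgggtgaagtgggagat
Atp1b3: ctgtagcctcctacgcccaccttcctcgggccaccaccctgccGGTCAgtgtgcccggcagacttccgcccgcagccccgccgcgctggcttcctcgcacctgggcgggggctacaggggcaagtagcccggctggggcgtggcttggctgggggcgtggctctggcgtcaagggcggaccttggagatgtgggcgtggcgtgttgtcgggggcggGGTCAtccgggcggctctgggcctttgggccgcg

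Motifs were searched in the 8 windows of these 7 genes, of which Atp1b3 has a pair. The core of the estrogen response element, GGTCA, looked for on both strands, was in 35.2% of all 32851 windows of the same length, and of the 8 windows only that of Atp1b3 printed here held it, at 207 and 34 bases before the start. The palindrome of GGTCA, 3 bases of any kind and TGACC, which contains that core, was in 0.0639% of all windows on either strand and in none of the 8. The E-box CACGTG was in 6.02% of all windows on either strand and lay 221 bases before the other Atp1b3 start. TATAAA, looked for on the gene's strand, was in 7.59% of all windows and in none of the 8. A match describes letters only, and a window without one says only that these letters are not in it.

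Per-library FPKM summed to between 216032 and 591668, and without read totals the depth is unknown, so values carry no counting interval. Tsc2 itself was measured at 1.62 to 3.33 FPKM over the 9 KO libraries and 2.04 to 3.49 FPKM over the 9 WT libraries, a mean difference of -0.18 on log2(FPKM + 1) within hormone state (exact two-sided permutation test over 8000 arrangements, p = 0.00275), and the sources used here do not say which exons are deleted. In all, 3 libraries were set apart after seeing the data: KO E2 replicate 2 correlated across genes at a mean r of 0.898 with the other KO E2 libraries and 0.947 with WT E2, WT intact replicate 4 at 0.891 within its group and 0.889 against WT E2, and KO ovx replicate 4 at 0.921 with its own group. Other libraries had similar values. WT intact replicates 1 and 2 stood at 0.907 and 0.926 within their group and 0.927 and 0.937 with KO intact. KO E2 replicates 1 and 3 stood at 0.92 and 0.913 within theirs. By steps in their lowest values the libraries were cut into 4 sets, a number that was set and not found, used here as batches the labels do not name. The share of low values with a common ratio was at least 3.56% for pairs within a set and up to 3.98% between sets, so the sets were not fully separate. Intact and ovx libraries shared no set, so batch and the ovx against intact comparisons cannot be told apart. All KO ovx libraries lay in 1 set with KO E2 replicate 3, while KO E2 replicates 1 and 2 lay in another. E2 against ovx in KO is thus largely confounded with batch. Quantile normalization moved the median log2 difference of all genes by -0.12 for KO against WT in ovx and by -0.25 for E2 against ovx in WT, and the share of calls that were higher then stood at 51.3% in place of 85.4% and at 43.6% in place of 67.9%. The same normalization gave shifts and shares of -0.11 and 39.5% in place of 58.7% for E2 against ovx in KO, of 0.16 and 47.4% in place of 34.1% for ovx against intact in WT, and of 0.13 and 48.9% in place of 36.8% for the genotype difference in the response to E2. For the difference in the response to ovx they were -0.14 and 54.9% in place of 77.9%. Median-ratio scaling gave higher shares of 70.1% for KO against WT in ovx, 57.0% for E2 against ovx in WT and 45.1% for ovx against intact in WT.

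Markers of other cells in these cross sections moved with the groups as well. Summed over 8 epithelial markers (Krt8, Krt18, Krt19, Krt7, Epcam, Cdh1, Cldn3 and Cldn4), levels were 203, 392 and 424 FPKM in KO intact and 398, 545 and 1317 FPKM in WT intact. The same sum was 289, 202 and 646 FPKM in KO ovx and 79.4, 136 and 142 FPKM in WT ovx, and 125, 762 and 415 FPKM in KO E2 and 972, 708 and 1260.4 FPKM in WT E2. The KO libraries thus held more epithelial message than WT in ovx, without overlap. The 6 neutrophil markers summed to 14535, 3086 and 1318 FPKM in KO E2 and 69.6, 2345 and 559 FPKM in WT E2, and within them S100a8 had 7663, 708 and 629 FPKM in KO E2 and 29.4, 98.1 and 218 FPKM in WT E2, while Ltf in that list is also made by the uterine lining under estrogen. Adipocyte markers (6 genes) summed to 293, 0.195 and 1447 FPKM in KO E2 and 0.221, 34.5 and 0.223 FPKM in WT E2, to 78.8 FPKM in KO ovx replicate 4, and to at most 0.375 FPKM in every other library. The 7 smooth muscle markers summed to 1690.3, 1535 and 487 FPKM in KO intact and 134, 455 and 73.1 FPKM in WT intact. In ovx the sums of 3 other lists were lower in KO without overlap: 6 stromal markers had 288, 318 and 113 FPKM in KO ovx and 419, 472 and 403 FPKM in WT ovx, 5 endothelial markers 15.8, 19.1 and 7.41 FPKM in KO ovx and 23.2, 27.0 and 24.1 FPKM in WT ovx, and 5 nerve and glial markers 3.01, 3.42 and 2.48 FPKM in KO ovx and 4.37, 3.72 and 3.80 FPKM in WT ovx. In intact uteri the endothelial sum was higher in KO without overlap, at 19.7, 50.1 and 27.9 FPKM in KO intact and 13.2, 8.39 and 1.59 FPKM in WT intact. Over all 6 groups, the lowest and highest library sums were 119 and 1084 FPKM for 5 skeletal muscle markers, of which Acta1 alone gave between 113 and 1078 FPKM and resembles smooth muscle actin closely enough to share reads. The part of these cell types in the results below was not tested, except where a value is given beside a result.

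Fxyd2 codes for the gamma subunit, which lowers the pump's affinity for sodium in kidney tubules. In the ovx state it had 71.4, 69.4 and 297 FPKM in KO libraries, against 0.846, 1.58 and 0.857 FPKM in WT libraries. In the intact state it had 0.430, 0.366 and 0.770 FPKM in KO and 0.899, 0.288 and 0.143 FPKM in WT. Under E2 it had 1.51, 0.593 and 4.62 FPKM in KO and 1.20, 1.99 and 0.607 FPKM in WT. Only the KO ovx libraries were high, each far above every library of the other groups, and the genotypes overlapped in the other states. Between genotypes the KO minus WT difference on the log2(FPKM + 1) scale was 5.80 ± 0.50 (model SE) in ovx, 5.11 without KO ovx replicate 4, and 0.36 ± 0.50 under E2. E2 minus ovx was -5.35 ± 0.50 in KO and 0.09 ± 0.50 in WT. Within the set of libraries that held all 3 KO ovx and 2 of the WT ovx libraries the KO minus WT difference in ovx was 5.96. In that set, with KO E2 replicate 3 as the only KO E2 library, E2 minus ovx in KO was -4.35.

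Epithelial markers were also higher in KO ovx, so Fxyd2 was set against them. Per 100 FPKM of the 8 epithelial markers Fxyd2 stood at between 24.7 and 46.0 in KO ovx and between 0.603 and 1.16 in WT ovx, so the ranges stayed apart. Kidney tissue was looked for with 6 markers (Umod, Slc12a1, Slc12a3, Aqp2, Slc34a1 and Slc22a6), which summed to between 0.117 and 0.438 FPKM in KO ovx with Slc22a6 listed at 0 in all 3 libraries. The genes whose levels followed Fxyd2 most closely over the 18 libraries were Ptgdr, Gcgr and Chrna4, with Pearson's r of 0.97, 0.97 and 0.96. These r, like those given below, rest on libraries that share groups and batches, and describe the order of the libraries only.

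Fxyd4, also known as corticosteroid hormone-induced factor, raises the pump's affinity for sodium. In the intact state it had 0.920, 0.716 and 0.605 FPKM in KO and 64.3, 77.5 and 116 FPKM in WT. In ovx it had 16.9, 8.51 and 18.7 FPKM in KO and 5.79, 12.3 and 9.40 FPKM in WT. Under E2 it had 0.203, 20.9 and 0.636 FPKM in KO and 49.9, 19.3 and 40.1 FPKM in WT. The genotypes stood far apart with ovaries present and overlapped once the ovaries were gone, and under E2 they overlapped through KO E2 replicate 2 alone. On the log2 scale the KO minus WT difference was -5.60 ± 0.77 in intact uteri, with means of 0.747 ± 0.160 FPKM in KO and 86.1 ± 27.1 FPKM in WT (SD, n = 3 each), and 0.61 ± 0.77 in ovx. Under E2 the difference was -3.32 ± 0.77, and -4.64 without KO E2 replicate 2, the library that resembled WT E2. The intact difference lay between -5.78 and -5.36 without any 1 of the 6 libraries, and was -5.64 and -5.52 within the 2 sets of intact libraries.

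In FPKM as deposited, the hormone comparisons of Fxyd4 ran in opposite directions in the genotypes. Ovx minus intact was 3.10 ± 0.77 in KO and -3.11 ± 0.77 in WT, and E2 minus ovx was -2.10 ± 0.77 in KO and 1.83 ± 0.77 in WT. These comparisons share their ovx libraries and are given side by side only. For E2 against ovx in KO the libraries overlapped through KO E2 replicate 2 alone, at 20.9 FPKM. In WT, 7 of the 8 epithelial markers were called higher for E2 against ovx and 6 lower for ovx against intact. Per 100 FPKM of them Fxyd4 stood at between 6.60 and 9.05 in WT ovx and between 2.73 and 5.14 in WT E2, lower under E2 without overlap. In KO it stood at between 2.90 and 5.86 in ovx and between 0.153 and 2.74 under E2, also lower without overlap. On that scale E2 against ovx thus ran the same way in both genotypes. Set against epithelial content the genotypes stayed apart in intact uteri, were apart in ovx with KO lower, and overlapped narrowly under E2. Per 100 FPKM of epithelial markers Fxyd4 stood at between 0.143 and 0.453 in KO intact and between 8.84 and 16.2 in WT intact. In ovx it stood at between 2.90 and 5.86 in KO and between 6.60 and 9.05 in WT. Under E2 it stood at between 0.153 and 2.74 in KO and between 2.73 and 5.14 in WT. By group mean the order was WT intact, WT E2, KO ovx, WT ovx, KO E2 and KO intact, and neighbours in it overlapped except WT intact and WT E2, and WT E2 and KO ovx. Mov10, Kif5c and Slc23a1 followed Fxyd4 most closely, at r of 0.92, 0.91 and 0.91.

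**Figure D2:**
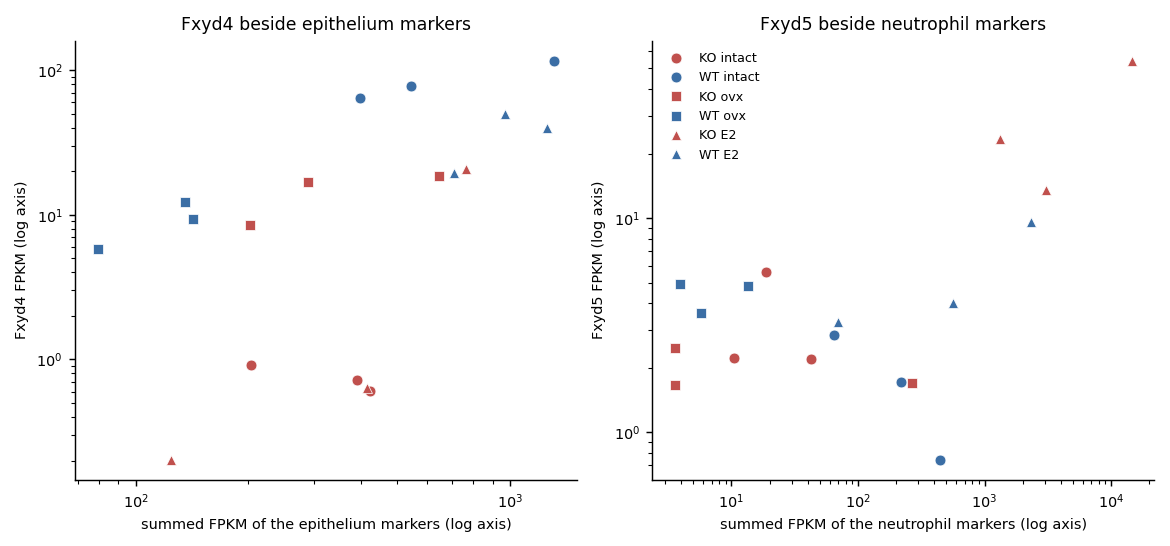
Fxyd4 FPKM against summed epithelial markers (left) and Fxyd5 FPKM against summed neutrophil markers (right), 1 point per library, all axes logarithmic; colours give genotype and shapes the hormone state. The 3 KO intact libraries and 2 KO E2 libraries lie below 1 FPKM of Fxyd4 at epithelial sums of 125 to 424 FPKM, and the 3 KO E2 libraries hold the highest Fxyd5.

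Fxyd3, a regulator of surface and glandular epithelia that is often raised in tumours, had 5.36, 58.7 and 17.9 FPKM in KO E2 and 61.6, 105 and 71.5 FPKM in WT E2. In ovx it had 24.6, 18.9 and 76.2 FPKM in KO and 4.23, 8.19 and 7.02 FPKM in WT. In intact uteri it had 18.3, 26.5 and 45.4 FPKM in KO and 17.9, 35.0 and 92.3 FPKM in WT. KO was thus higher than WT after ovariectomy and lower under estradiol, both without overlap, and overlapped WT in intact uteri. Under E2 the libraries overlapped after median-ratio scaling or quantile normalization. The KO minus WT differences were 2.23 ± 0.73 in ovx, -2.02 ± 0.73 under E2 and -0.46 ± 0.73 in intact uteri. The E2 difference lay between -2.83, without KO E2 replicate 2, and -1.22, without KO E2 replicate 1, and the intact one was 0.16 without WT intact replicate 4. E2 minus ovx was -0.82 ± 0.73 in KO and 3.43 ± 0.73 in WT, where 7 of the 8 epithelial markers were called higher too.

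Fxyd3 was also set against the epithelial markers. Per 100 FPKM of those markers it stood at between 4.30 and 7.71 in KO E2 and between 5.67 and 14.8 in WT E2, which overlapped, and at between 8.52 and 11.8 in KO ovx and between 4.93 and 6.03 in WT ovx, which did not. Its closest companions over the libraries were 2610528J11Rik, Crb3 and Marveld3, at r of 0.96, 0.96 and 0.95. Group means ran from 79.2 ± 22.5 FPKM in WT E2 down to 6.48 ± 2.03 FPKM in WT ovx (SD, n = 3 each), and every pair of neighbours in the order of the 6 groups overlapped.

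Fxyd5, or dysadherin, is a heavily glycosylated member of the family that weakens adhesion between cells. Under E2 it had 54.3, 13.5 and 23.4 FPKM in KO and 3.27, 9.58 and 4.02 FPKM in WT. In ovx it had 1.67, 2.49 and 1.71 FPKM in KO and 3.59, 4.94 and 4.80 FPKM in WT. In intact uteri it had 2.23, 5.60 and 2.19 FPKM in KO and 2.83, 1.72 and 0.745 FPKM in WT. The KO libraries were all above WT under E2 and all below WT in ovx, where the stromal, endothelial and nerve marker sums were also lower in KO without overlap. Between genotypes the KO minus WT difference was 2.14 ± 0.45 under E2, between 1.63 without KO E2 replicate 1 and 2.59 without KO E2 replicate 2, -0.88 ± 0.45 in ovx and 0.63 ± 0.45 in intact uteri. E2 minus ovx was 3.20 ± 0.45 in KO and 0.17 ± 0.45 in WT. The library with the highest Fxyd5, KO E2 replicate 1, also had the highest neutrophil sum, 14535 FPKM. The WT E2 library with the most Fxyd5, replicate 2, had the highest neutrophil sum of its group, 2345 FPKM, but 2103 FPKM of it was Ltf. S100a8, S100a9 and Mpo were higher in WT E2 replicate 5, at 218, 339 and 0.484 FPKM, than in replicate 2, at 98.1, 142 and 0.160 FPKM. Camp and Ngp went the other way. KO E2 replicate 3 had 23.4 FPKM of Fxyd5 at a neutrophil sum of 1318 FPKM, below that of WT E2 replicate 2 through Ltf alone. Ltf had 29.6 FPKM in KO E2 replicate 3, and every other marker of the list was higher there than in WT E2 replicate 2, such as S100a8 at 629 against 98.1 FPKM. KO E2 replicate 2 had a higher neutrophil sum than replicate 3, 3086 FPKM, but less Fxyd5. Ltf, S100a8 and S100a9 were higher in replicate 2, and Camp, Ngp and Mpo were lower. Stromal markers summed to 855, 157 and 924 FPKM in KO E2 and 163, 184 and 127 FPKM in WT E2. Endothelial markers summed to 37.9, 9.74 and 42.6 FPKM in KO E2 and 8.75, 10.1 and 8.20 FPKM in WT E2. Among E2 libraries both sums, like the adipocyte sum, were highest in KO E2 replicates 1 and 3. The part of neutrophils and of the other cell types in the Fxyd5 level was not tested. Fmnl1, Csf2rb and Gpsm3 followed Fxyd5 most closely, each at r of 0.96.

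Fxyd1, or phospholemman, is the kinase-regulated brake on the pump in heart and muscle. In ovx it had 6.03, 6.90 and 2.73 FPKM in KO and 11.6, 12.3 and 11.7 FPKM in WT. Under E2 it had 6.10, 1.26 and 4.74 FPKM in KO and 5.31, 5.87 and 1.10 FPKM in WT. In intact uteri it had 3.81, 3.89 and 0.979 FPKM in KO and 1.27, 2.18 and 0.221 FPKM in WT. The 3 WT ovx libraries lay close together and above every other library, and WT intact was the lowest group. On the log2 scale the KO minus WT difference was -1.12 ± 0.53 in ovx, -0.79 without KO ovx replicate 4, 0.00 ± 0.53 under E2 and 0.80 ± 0.53 in intact uteri. In ovx the stromal, endothelial and nerve marker sums were lower in KO too, without overlap, and their part in the Fxyd1 level was not tested. Ovx minus intact was 0.72 ± 0.53 in KO and 2.64 ± 0.53 in WT. In that WT comparison 45.3% of all genes were called by limma. Called higher there were 7 of 7 smooth muscle, 4 of 5 endothelial and 2 of 6 stromal markers. So were 2 of 3 skeletal muscle and 1 of 2 nerve and glial markers tested. Their part was not tested. Inpp5a, Zfp651 and Tgfbr3 followed it most closely, at r of 0.95, 0.94 and 0.90.

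Fxyd6, known as phosphohippolin from its level in brain, had 25.9, 38.4 and 35.5 FPKM in KO intact and 15.8, 17.5 and 1.59 FPKM in WT intact. In ovx it had 21.5, 31.0 and 34.9 FPKM in KO and 17.7, 22.1 and 14.9 FPKM in WT. Under E2 it had 18.1, 7.10 and 15.7 FPKM in KO and 14.2, 13.9 and 6.64 FPKM in WT. KO intact lay above WT intact without overlap, with WT intact replicate 4 far below the others: the KO minus WT difference was 1.86 ± 0.58 with all libraries and 0.94 without it. The differences were 0.64 ± 0.58 in ovx and 0.19 ± 0.58 under E2, with overlap in both. Hspb8, Mxra7 and 2210016L21Rik followed Fxyd6 most closely, at r of 0.93, 0.92 and 0.91. In intact uteri the smooth muscle sum, 1690.3, 1535 and 487 FPKM in KO and 134, 455 and 73.1 FPKM in WT, and the endothelial sum were higher in KO without overlap, as Fxyd6 was. The nerve and glial sum, 2.64, 2.86 and 1.61 FPKM in KO and 0.943, 3.62 and 3.53 FPKM in WT, overlapped. The part of these cell types in the Fxyd6 level was not tested.

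Of the beta subunits, Atp1b1, the usual partner of the alpha subunit in epithelia, had 21.7, 18.3 and 64.3 FPKM in KO ovx and 8.03, 8.65 and 8.75 FPKM in WT ovx. Under E2 it had 5.01, 16.8 and 4.78 FPKM in KO and 19.9, 17.3 and 40.1 FPKM in WT. In intact uteri it had 14.4, 12.0 and 20.1 FPKM in KO and 83.3, 19.9 and 7.81 FPKM in WT. Like Fxyd3, it was higher in KO than WT in ovx and lower under E2 without overlap, and the WT intact libraries spread widely. Under E2 these libraries too overlapped after median-ratio scaling or quantile normalization. The KO minus WT difference was 1.69 ± 0.68 in ovx, 1.14 without KO ovx replicate 4, and -1.56 ± 0.68 under E2, -2.09 without KO E2 replicate 2. In intact uteri it was -0.63 ± 0.68, with values of 0.25 without WT intact replicate 1 and -1.38 without WT intact replicate 4. Per 100 FPKM of epithelial markers Atp1b1 stood at between 7.49 and 9.95 in KO ovx and between 6.15 and 10.1 in WT ovx, and at between 1.15 and 4.02 in KO E2 and between 2.05 and 3.18 in WT E2, both with overlap.

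Atp1b3, a widely expressed beta subunit also seen on blood cells, had 48.3, 44.0 and 39.9 FPKM in KO E2 and 85.6, 66.9 and 101 FPKM in WT E2. In ovx it had 36.2, 40.1 and 25.7 FPKM in KO and 22.8, 28.5 and 24.8 FPKM in WT. In intact uteri it had 27.2, 40.0 and 36.7 FPKM in KO and 29.6, 37.6 and 111 FPKM in WT. WT E2 was high and apart from KO E2, and the other comparisons of genotype overlapped. Between genotypes the KO minus WT difference was -0.91 ± 0.36 under E2, 0.39 ± 0.36 in ovx and -0.53 ± 0.36 in intact uteri, the last 0.04 without WT intact replicate 4. E2 minus ovx was 0.39 ± 0.36 in KO and 1.68 ± 0.36 in WT, where 7 of the 8 epithelial markers were called higher too. Per 100 FPKM of those markers Atp1b3 stood at between 17.4 and 28.8 in WT ovx and between 8.01 and 9.45 in WT E2, lower under E2 without overlap. Per 100 FPKM of epithelial markers Atp1b3 stood at between 5.78 and 38.7 in KO E2, with a median of 9.63, and between 8.01 and 9.45 in WT E2, with a median of 8.81, so the genotypes overlapped and the medians were in the other order. Atp1b3 made up 87.0, 71.9 and 86.0% of the summed beta subunit FPKM in KO E2 and 79.8, 78.1 and 71.4% in WT E2, and 58.1, 63.5 and 28.2% in KO ovx and 54.7, 61.3 and 60.4% in WT ovx. Myo6, Cobl and Rab3ip followed Atp1b1 at r of 0.88, 0.87 and 0.87, and Plekhm1, Atp13a4 and Fam46a followed Atp1b3 at r of 0.93, 0.92 and 0.92.

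**Figure D3:**
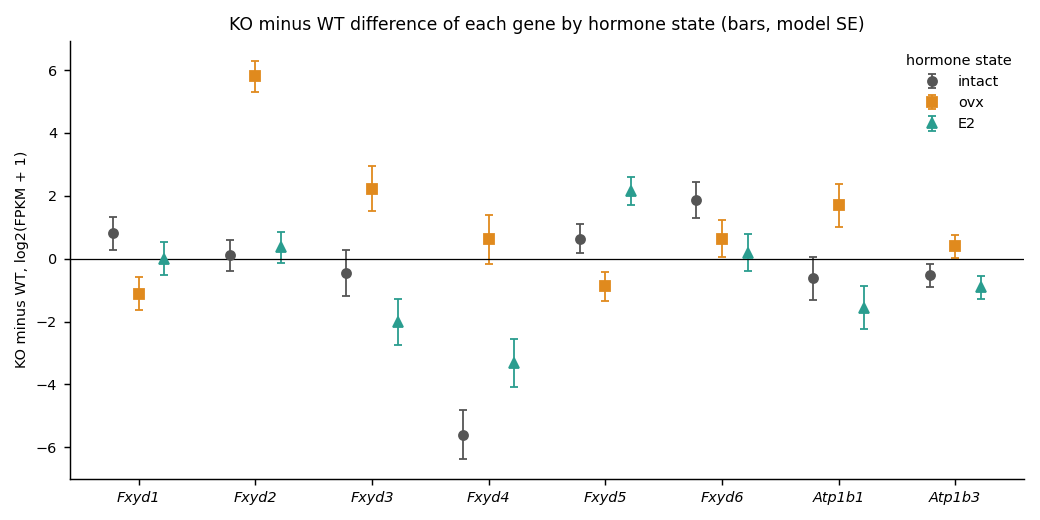
KO minus WT difference of each gene on log2(FPKM + 1) with the model SE as bars, for intact, ovx and E2 uteri, above 0 where KO was higher. Fxyd2 stands at 5.80 in ovx and Fxyd4 at -5.60 in intact uteri, and Fxyd3, Fxyd5 and Atp1b1 lie on opposite sides of 0 in ovx and E2.

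Counts over the 8 genes need the background of the whole table. KO and WT libraries did not overlap for 2 of 8 members in intact uteri (22.8% of the 13898 genes tested), for 5 of 8 in ovx (40.2% of genes) and for 4 of 8 under E2 (22.5% of genes). E2 and ovx libraries did not overlap for 4 of 8 in KO (36.3% of genes) and 6 of 8 in WT (66.7% of genes). Ovx and intact libraries did not overlap for 2 of 8 in KO (41.1% of genes) and 5 of 8 in WT (61.0% of genes). Since the members were chosen with such results known, nothing is read from these counts.

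Taken as shares of the 7 FXYD messages, Fxyd7 included, the make-up of the family differed from group to group. Fxyd2 held 49.8, 50.2 and 68.8% of the summed FXYD FPKM in KO ovx and 1.73, 2.45 and 1.63% in WT ovx. Fxyd4 held 1.77, 0.947 and 0.707% in KO intact and 62.4, 57.7 and 55.1% in WT intact. Fxyd6 and Fxyd3 were the top pair in every KO intact library, at 49.8, 50.8 and 41.5% for Fxyd6 and 35.2, 35.0 and 53.0% for Fxyd3, while WT ovx libraries were led by Fxyd6 with Fxyd1 second. Fxyd5 held 63.0, 13.2 and 34.9% in KO E2 and 2.40, 6.14 and 3.24% in WT E2. The summed FXYD FPKM was 143, 138 and 432 in KO ovx and 49.0, 64.6 and 52.8 in WT ovx, 52.0, 75.6 and 85.6 in KO intact and 103, 134 and 212 in WT intact, and 86.2, 102 and 67.2 in KO E2 and 136, 156 and 124 in WT E2. The sum was higher in KO without overlap in ovx and lower in KO without overlap in the other states.

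**Figure D4:**
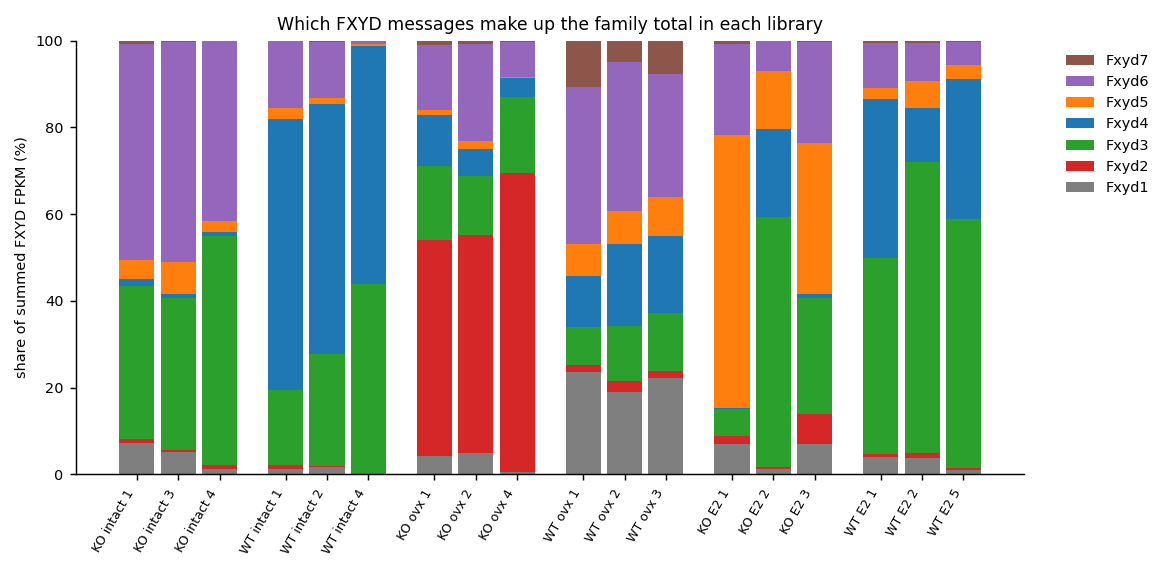
Share (%) of each FXYD message in the summed FPKM of Fxyd1 to Fxyd7, 1 stacked bar per library, KO left of WT within each hormone state. Fxyd2 fills the lower part of the 3 KO ovx bars, Fxyd4 more than 50% of each WT intact bar, and Fxyd5 the largest share of KO E2 replicates 1 and 3.

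Several of the genes are neighbours. In the positions given by the table, whose build is not stated, Fxyd5, Fxyd7, Fxyd1 and Fxyd3 follow each other on chromosome 7 with 191, 222 and 4277 bases between them, and Fxyd6 and Fxyd2 lie 3548 bases apart on chromosome 9. Over the 18 libraries the neighbours Fxyd7 and Fxyd1 had a Pearson's r of 0.82, Fxyd5 and Fxyd7 of -0.05, Fxyd1 and Fxyd3 of -0.68, and Fxyd6 and Fxyd2 of 0.41. The sources used here do not say how reads that cross such short gaps were assigned.

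The other pump genes were tested, although this list and those of regulators and transporters were also drawn up with earlier results known, so their counts are no independent evidence. Of the 11 listed, 6 passed the filter, and Atp1b4, Atp4b, Nkain2, Nkain3 and Nkain4 did not. In ovx, 2 of the 6 rose in KO and 1 fell (limma, adjusted p under 0.05, against 5.42% of all genes called), and their median log2 difference was 0.47 against 0.09 for all genes tested. Fxyd7, a regulator known from brain, fell to 1.30, 1.16 and 0.805 FPKM in KO ovx, against 5.25, 3.17 and 4.10 FPKM in WT ovx (-1.29 ± 0.19, adjusted p = 0.00139), and was called without each library in turn. It reached 1 FPKM only in the WT ovx libraries and KO ovx replicates 1 and 2, so it passed the filter through the state where it was high. The same limit holds for every p-value of Fxyd7 below. The nerve and glial, stromal and endothelial marker sums were lower in KO ovx as well, without overlap, and their part in the Fxyd7 level was not tested. Atp12a, a non-gastric proton pump, rose to 3.26, 2.85 and 3.97 FPKM in KO ovx, against 1.22, 1.54 and 1.27 FPKM in WT ovx (0.89 ± 0.18, adjusted p = 0.0126), a call lost without 3 of the 6 libraries in turn. Atp4a, the gastric proton pump, rose by 0.96 ± 0.26 (adjusted p = 0.0429), a call lost without 5 of the 6. Atp4a, Atp12a and Atp1a4, an alpha subunit of sperm, have close relatives in the genome, and how the authors' quantification divides reads shared with them was not tested, so their values are uncertain. None of the 6 passed the limma test between the genotypes in intact uteri, with 3 at an unadjusted p under 0.05, or under E2, with 0, where 2.18% and 8.49% of all genes were called.

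Across the hormone comparisons these genes were called as follows. For E2 against ovx in KO, 1 of 6 rose and 4 fell (limma, 27.1% of all genes called): Nkain1, which binds the beta subunit, rose by 1.31 ± 0.37, and Atp12a fell by 1.18 (adjusted p = 0.00027). Atp1a4 and Atp4a fell by 0.88 and 0.76 there, each call lost without 4 of the 6 libraries in turn and with batch as a term. In the same comparison in WT, 1 rose and 2 fell (47.5% of all genes called). Atp1b2, the adhesion molecule on glia that serves as a beta subunit, fell there by 2.29 (adjusted p = 0.00154), to 1.73, 1.48 and 0.307 FPKM in WT E2 against 10.9, 9.35 and 7.49 FPKM in WT ovx. Fxyd7 fell by 1.70 in WT (adjusted p = 4.38e-05) and by 0.70 in KO (adjusted p = 0.0154), the last lost without 3 of the 6 libraries in turn. After ovariectomy, against intact, Atp1a4, Fxyd7 and Atp12a rose and Nkain1 fell in KO (15.9% of all genes called), calls lost without 5, 4, 4 and 5 of the 6 libraries in turn, and 2 rose and 1 fell in WT (45.3% of all genes called), where Fxyd7 rose by 2.16 (adjusted p = 7.89e-06) and Atp1b2 by 2.22 (adjusted p = 0.00221). The genotypes differed in the response to E2 for 3 of 6 (11.0% of all genes called) and in the response to ovx for 3 of 6 (4.63% of all genes called), in each case Atp4a, Atp12a and Fxyd7. The difference was -1.27 ± 0.26 for Atp12a in the response to E2 (limma, adjusted p = 0.00976), a call whichever of the 12 libraries was left out. With replicate number as a term that call was lost. The other calls were lost without 6 of 12 libraries in turn for Fxyd7 and 4 for Atp4a in the response to E2, and without 1 for Fxyd7, 5 for Atp4a and 9 for Atp12a in the response to ovx.

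**Figure D5:**
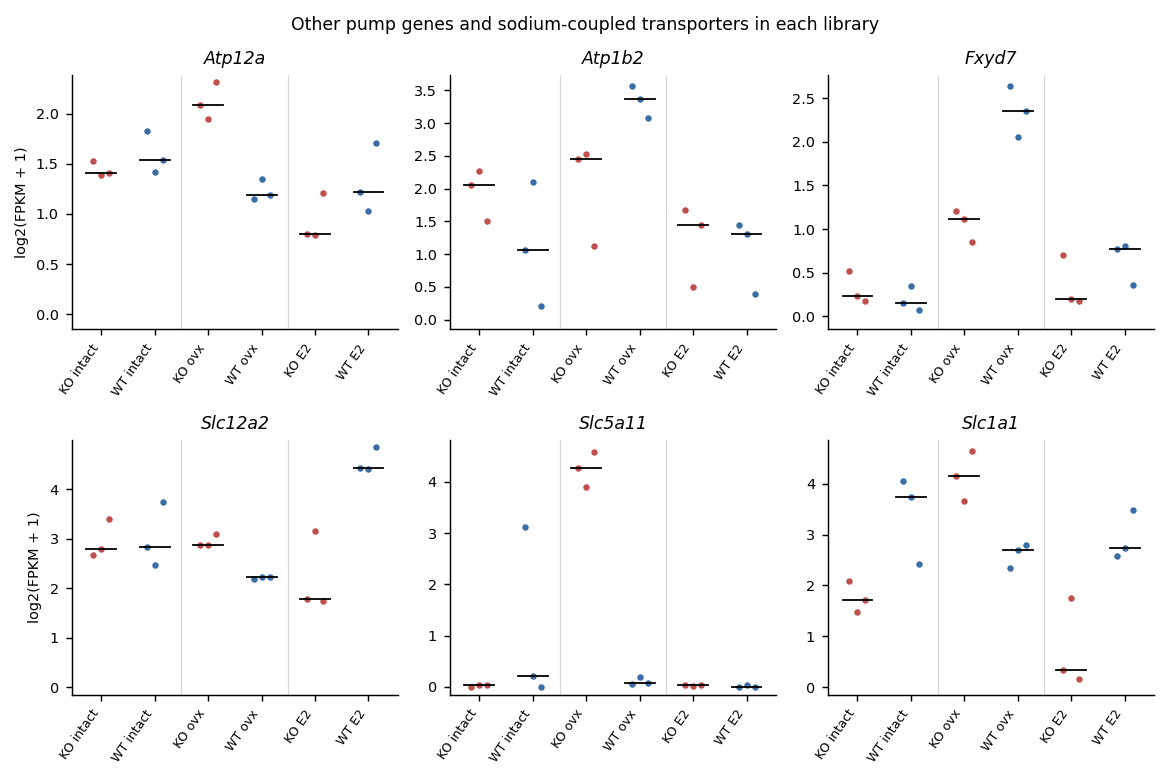
log2(FPKM + 1) of 6 genes that are not members (the pump genes Atp12a, Atp1b2 and Fxyd7 and the transporters Slc12a2, Slc5a11 and Slc1a1) in each library, KO left of WT within each hormone state; points are libraries and lines are group medians of 3. Slc5a11 is high in the 3 KO ovx libraries and in WT intact replicate 1, and Slc12a2 in the 3 WT E2 libraries.

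Genes that regulate the pump or sodium transport gave no call between genotypes: 0 of the 11 tested passed in KO against WT in any of the 3 states (limma), with 1 in intact, 2 in ovx and 1 under E2 at an unadjusted p under 0.05. Of all genes 2.18%, 5.42% and 8.49% were called in these states, so a count of 0 among 11 is near the background. Sgk2 and Nr3c2 did not pass the filter. Their response to estradiol was tested within each genotype. For E2 against ovx in KO (27.1% of all genes called), Sgk1, the kinase that aldosterone induces, rose by 2.50 ± 0.67 (adjusted p = 0.0126), and Wnk4, a kinase of salt transport, and Nfat5, the tonicity factor, fell by 1.49 and 0.89. In WT (47.5% of all genes called), Stk39, a kinase that activates chloride cotransport, rose by 1.43 ± 0.28 (adjusted p = 0.000977), and Nfat5 and Tsc22d3 fell by 1.00 and 1.71. For ovx against intact (15.9% of all genes called in KO and 45.3% in WT), Wnk4 rose by 0.74 in KO, and in WT Nfat5 rose by 0.37 while Sgk1 and Stk39 fell by 2.14 and 0.85. Of these 10 calls, those of Wnk4 and Nfat5 in KO and of Stk39 and Nfat5 in WT, all between E2 and ovx, held without each library in turn. Wnk4 differed between genotypes in its response to E2 (-1.02 ± 0.28, adjusted p = 0.0335), a call lost without 7 of 12 libraries in turn (highest adjusted p = 0.0882).

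Transporters that use the sodium gradient, or move potassium beside it, were 25 genes, of which 18 were tested. In ovx, 2 of the 18 rose in KO (5.42% of all genes called). Slc5a11, a sodium-coupled inositol transporter, rose to 18.3, 13.9 and 23.0 FPKM in KO ovx, against 0.0476, 0.152 and 0.0489 FPKM in WT ovx (4.14 ± 0.54, limma, adjusted p = 0.000446), and was called without each library in turn. It reached 1 FPKM only in the KO ovx libraries and WT intact replicate 1, so it passed the filter through the group where it was high. The same limit holds for every p-value of Slc5a11 below. Per 100 FPKM of epithelial markers, which were higher in KO ovx too, Slc5a11 stood at between 3.56 and 6.87 in KO ovx and between 0.0344 and 0.112 in WT ovx, without overlap. Slc12a7, a potassium-chloride cotransporter, rose by 1.12 ± 0.28 (adjusted p = 0.0341), lost without 5 of the 6 libraries in turn. Slc1a1, a sodium-coupled glutamate transporter, had 16.9, 11.7 and 23.9 FPKM in KO ovx and 4.07, 5.45 and 5.90 FPKM in WT ovx, a difference that did not pass the test.

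Under E2, 4 of the 18 rose in KO and 3 fell (8.49% of all genes called). Slc12a2, the sodium-potassium-chloride cotransporter that loads secretory epithelia with chloride, fell to 2.44, 7.88 and 2.36 FPKM in KO E2, against 20.6, 20.2 and 27.7 FPKM in WT E2 (-2.33 ± 0.35, limma, adjusted p = 0.00114), and was called without each library in turn. Slc1a1 fell to 0.261, 2.36 and 0.118 FPKM in KO E2, against 4.99, 5.66 and 10.1 FPKM in WT E2 (-2.18 ± 0.45, adjusted p = 0.00757), with an adjusted p of 0.0505 without KO E2 replicate 1. Of the 8 epithelial markers, 2 were called lower in KO E2 as well, with a median log2 difference of -1.60 over the list. Per 100 FPKM of them Slc12a2 stood at between 0.569 and 1.96 in KO E2 and between 2.12 and 2.85 in WT E2, and Slc1a1 at between 0.0286 and 0.310 in KO E2 and between 0.513 and 0.803 in WT E2, both without overlap. Slc5a1, a sodium-glucose cotransporter, fell by 1.42 (adjusted p = 0.0313). The potassium-chloride cotransporters Slc12a4 and Slc12a7 rose by 1.09 and 1.11, the phosphate transporter Slc20a1 by 0.87, and Slc24a6, listed also as Slc8b1 and known as the sodium-calcium exchanger of mitochondria, by 0.94. Of these 7 calls only that of Slc12a2 held without each library in turn. In intact uteri the only call was Slc8a1, the sodium-calcium exchanger of muscle, which rose by 1.22 ± 0.30 (adjusted p = 0.0483) and was lost without KO intact replicate 1 or 3 or WT intact replicate 4, with a highest adjusted p of 0.194. Smooth muscle markers were higher in KO intact than in WT intact, with the sums given above.

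In all, 3 of these transporters differed between genotypes in the response to estradiol. On the log2 scale the KO minus WT difference in E2 minus ovx was -3.07 ± 0.50 for Slc12a2 (limma, adjusted p = 0.0038). It was -4.13 ± 0.76 for Slc5a11 (limma, adjusted p = 0.00586) and -3.73 ± 0.63 for Slc1a1 (limma, adjusted p = 0.00426). Each was a call whichever of the 12 libraries was left out. With replicate number as a term the call of Slc12a2 held, and those of Slc5a11 and Slc1a1 were lost. In the same comparison the 8 epithelial markers had a median of -3.15 with 5 called lower, and their part in these differences was not tested. For ovx minus intact it was 5.22 ± 0.76 for Slc5a11 (adjusted p = 0.00599) and 3.20 ± 0.63 for Slc1a1 (adjusted p = 0.0158), the last missing the threshold once WT ovx replicate 1 was left out (adjusted p = 0.0558), beside a median of 2.52 for the epithelial markers with 1 called higher. Within the genotypes, E2 minus ovx gave no higher call and 6 lower in KO (27.1% of all genes called), led by Slc5a11 at -4.23, Slc1a1 at -3.40, Slc6a6 at -1.69, Slc5a3 at -1.66 and Slc8a1 at -1.20. In WT (47.5% of all genes called) it gave 3 higher, Slc34a2 at 3.07, Slc12a2 at 2.35 and Slc5a1 at 2.09, and 5 lower, namely Slc12a7 at -1.16, Slc8a1 at -1.13, Slc6a6 at -0.96, Slc12a4 at -0.84 and Slc5a6 at -0.77. Of the 8 epithelial markers, 7 were called higher in that WT comparison, with a median of 2.95, and their part was not tested. Per 100 FPKM of them Slc12a2 stood at between 2.12 and 2.85 in WT E2 and between 2.58 and 4.46 in WT ovx, with overlap. Ovx minus intact gave 4 higher in KO (15.9% of all genes called), namely Slc5a11 at 4.22, Slc1a1 at 2.40 and Slc12a7 and Slc6a6 at 1.23 each. In WT (45.3% of all genes called) it gave 4 higher, namely Slc12a4 at 1.12, Slc8a1 at 1.08, Slc20a1 at 0.64 and Slc5a6 at 0.48, and Slc5a1 lower at -1.25. In that comparison 6 of the 8 epithelial markers were called lower too, and their part was not tested.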

How the data were processed

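Polyadenylated RNA from uterine cross sections was sequenced single-end with a stranded kit on a HiSeq2500, per the labels' protocols. The authors deposited 1 table of FPKM per gene and library, made with Cufflinks 2.0.2 and Cuffdiff per the submitters' processing notes. The genome build and the read totals are not given in the sources used here, so depth is unknown. FPKM as deposited were taken to log2(FPKM + 1), and the 13898 of 25791 genes at or above 1 FPKM in 3 or more libraries were kept. All 18 libraries entered a single limma model (limma 3.58.1, R 4.3.3) of group means with a trended prior, checked on simulated data, and Benjamini-Hochberg adjusted p-values under 0.05 over all genes tested were calls. SE are the model's. The fold scale understates changes of low genes. The members and gene lists were chosen with earlier results of these data known, so members carry no test. All 6 other tested pump genes, the called regulators and transporters (at most 5 each way per comparison) and the 3 genes most alike each member are named; some genes of the lists are not reported here and enter no count of a list. Alternatives were a pseudocount of 0.1, no filter, median-ratio and quantile scaling, batch or replicate number as a term, each library left out, and, chosen after seeing the data, the 3 libraries set apart above left out. Figures used matplotlib 3.10.9.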

Additional observations from a re-analysis of the deposited data

Results flagged for a closer look

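Among the members, 3 had KO and WT libraries on opposite sides in ovx and E2 uteri without overlap in either state, and this difference was not tested because the members were chosen on such values. The share of all genes with this pattern was not computed, so nothing is read from the count of 3. The KO minus WT difference on the log2(FPKM + 1) scale was -2.02 under E2 and 2.23 in ovx for Fxyd3, 2.14 under E2 and -0.88 in ovx for Fxyd5, and -1.56 under E2 and 1.69 in ovx for Atp1b1. After median-ratio scaling or quantile normalization the E2 libraries of Fxyd3 and Atp1b1 overlapped. The summed epithelial markers lay higher in KO than WT in ovx without overlap. Under E2 their sums overlapped, and 2 of the 8 markers were called lower in KO, with a median log2 difference of -1.60 over the list. Per 100 FPKM of these markers the genotypes overlapped for Atp1b1 in both states, and for Fxyd3 under E2 but not in ovx. The part of the epithelium in Fxyd3 and Atp1b1 was not tested.

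The response to E2 (E2 minus ovx) differed between the genotypes for 7 other genes by limma's test of the difference itself. KO minus WT was -1.44 for Atp4a, -1.27 for Atp12a and 1.01 for Fxyd7 among pump genes. It was -1.02 for Wnk4, -3.07 for Slc12a2, -4.13 for Slc5a11 and -3.73 for Slc1a1.

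The response to ovx (ovx minus intact) differed for 5 genes by the same test, and batch cannot be told apart from ovx and intact there. KO minus WT was 1.61 for Atp4a, 1.04 for Atp12a and -1.41 for Fxyd7. It was 5.22 for Slc5a11 and 3.20 for Slc1a1.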

How the results depend on the processing

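Counts below are of the other pump genes, regulators and transporters called by limma. For KO against WT in intact uteri the 1 call became 0 with a pseudocount of 0.1, no filter, median-ratio scaling, quantile normalization or batch as a term, and 2 without the 3 libraries set apart above. In ovx the 5 calls became 10 under quantile normalization and 3 with batch as a term. Under E2 the 7 calls became 4 with no filter, quantile normalization or batch and 13 without the 3 libraries. Without them the 7 genes whose response to E2 differed became 12 and the 5 whose response to ovx differed became 3. The member and state pairs without overlap between genotypes numbered 11, and 9 under median-ratio and quantile scaling, where Fxyd3 and Atp1b1 overlapped under E2. The cause of these changes was not tested. In the FPKM as deposited, 22.8% of all genes tested did not overlap in intact uteri, 40.2% in ovx and 22.5% under E2, and nothing is read from the count of 11.

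Leaving out each library in turn gave 11 to 13 such pairs and a Tsc2 difference of -0.21 to -0.15. Calls ranged over 0 to 1 in intact, 2 to 7 in ovx and 2 to 11 under E2 for KO against WT, 8 to 14 in KO and 10 to 12 in WT for E2 against ovx, and 3 to 7 in KO and 6 to 13 in WT for ovx against intact. They ranged over 4 to 10 for the genotype difference in the response to E2 and 1 to 7 for that to ovx. For KO against WT the extremes came without KO intact replicate 1 or 3 (0), without KO ovx replicate 4 or WT ovx replicate 1 or 3 (2) and KO ovx replicate 2 (7), and without KO E2 replicate 1 or WT E2 replicate 1 (2) and KO E2 replicate 2 (11). Of 73 calls, 31 held without each library in turn.

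Replicate numbers are shared between groups only as numbers. Deviations of the 14 same-numbered pairs correlated at -0.18 to 0.34, with 5 over 0.1. With the replicate block the calls were 3 in ovx and 1 under E2 for KO against WT. For the difference in the response to E2 there was 1 call, that of Slc12a2. FPKM without read totals give no counting error, and 3 libraries a group limit every SE.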
